A study of Mus musculus with 6 samples.

Results

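The proteasome genes described here encode the subunits of the proteasome, its activators and an inhibitor, and the factors that help to assemble it. They were taken by symbol, as every gene named Psma, Psmb, Psmc, Psmd, Psme, Psmf or Psmg with a number, together with Pomp, provided that it had at least 60 counts summed over all libraries. This gave 49 of the 16840 genes in the deposited count table, and no gene with such a symbol fell under the minimum. All 49 also passed the filter on low counts and were tested. The RNA came from cultured WT (wild-type) mouse alveolar macrophages at day 2; these cells live in the airspaces, where they take up surfactant and inhaled particles. Of 6 libraries, 2 came from cells given GM-CSF (granulocyte-macrophage colony-stimulating factor) together with DON, 2 from cells given GM-CSF alone and 2 from cells with no GM-CSF stimulation. All 3 groups shared the genotype and the day, and no group analysed here had DON without GM-CSF. The labels name the agent only as DON and the cell line only as AM. Whether it was an established line is not stated, nor whether replicates were separate cultures, so p-values measure the spread between these libraries, which may be technical.

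The proteasome degrades proteins tagged with ubiquitin. Its 20S core is a stack of rings: alpha subunits form the gated outer rings, and the inner beta rings carry the proteolytic sites on Psmb5, Psmb6 and Psmb7. The 19S regulator caps the core, and its ATPase subunits (Psmc) unfold substrates while its other subunits (Psmd) bind ubiquitin or form the scaffold. In immune cells, and under interferon, the catalytic subunits are exchanged for Psmb8, Psmb9 and Psmb10, which makes the immunoproteasome and alters the peptides offered to MHC class I. Psme1 and Psme2 form PA28, an interferon-inducible activator that opens the core in place of the 19S cap. Macrophages are known to carry both forms of the core.

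Total counts per library were between 28321986 and 35196387, and 12340 genes passed the filter on low counts. Of the alveolar macrophage markers, 10 of 11 were in the table and none was at 0, with summed levels of 14452 and 14453 CPM (counts on a common scale of library size) with DON, 11457 and 11478 CPM with GM-CSF and 7729 and 7131 CPM with no GM-CSF. These sums rest on few genes: Chi3l3 alone had 7759 and 7641 CPM with DON, 5534 and 5549 CPM with GM-CSF and 1809 and 1818 CPM with no GM-CSF. With GM-CSF against no GM-CSF 3 of the 10 rose and 5 fell (median log2 fold change -0.25), among them Car4 (11.48) and Fabp4 (-1.14). The size of the Car4 change rests on a level near the floor with no GM-CSF. General macrophage markers (6 in the table) summed to 3216 and 3162 CPM with DON, 2675 and 2611 CPM with GM-CSF and 4946 and 4658 CPM with no GM-CSF; 1 rose and 5 fell with GM-CSF against no GM-CSF (median -0.78), among them Emr1 (-2.41). Summed markers of lymphocytes and lung epithelium were at most 4.31 CPM in any library, and those of stroma and endothelium at most 1.82 CPM. Dendritic cell markers summed to 25.3 and 25.5 CPM with DON, 28.0 and 27.7 CPM with GM-CSF and 8.91 and 8.64 CPM with no GM-CSF. The only granulocyte marker in the table, S100a8, had 3.78 and 3.04 CPM with DON, 4.34 and 3.76 CPM with GM-CSF and 16.0 and 17.2 CPM with no GM-CSF. The part of these markers in the proteasome results was not tested. In bulk RNA, fewer cells of a type and less RNA per cell cannot be told apart.

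As a whole, the proteasome genes took the largest share of counts in the GM-CSF libraries. Their share was 0.417% ± 0.00936 with DON, 0.541% ± 0.0030 with GM-CSF and 0.429% ± 0.0131 with no GM-CSF (SD, n = 2 each). By library, this share of unscaled counts was 0.424% and 0.411% with DON, against 0.420% and 0.438% with no GM-CSF. The DON libraries and those with no GM-CSF thus overlapped in this share. The 31 subunits of the 19S and 20S particles outside the immunoproteasome, leaving out the tissue-specific Psma8 and Psmb11, are called the core set here. They summed to 3400 and 3248 CPM with DON, 4392 and 4339 CPM with GM-CSF and 3522 and 3660 CPM with no GM-CSF. In these sums, which use scaled library sizes, the GM-CSF libraries were the highest and the DON libraries the lowest, and no groups overlapped. The immunoproteasome and PA28 subunits (Psmb8, Psmb9, Psmb10, Psme1 and Psme2) followed another order: they summed to 331 and 311 CPM with DON, 317 and 320.2 CPM with GM-CSF and 390.3 and 402 CPM with no GM-CSF. Here the libraries with no GM-CSF were the highest, and the other groups overlapped.

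Levels of different genes were compared in FPKM, the authors' values per length of transcript and size of library. The highest member in every group was Psmd8, a 19S lid subunit, with a mean of 493 FPKM with DON, 408 FPKM with GM-CSF and 384 FPKM with no GM-CSF. Psmb6, which carries the caspase-like site, had 253, 338 and 311 FPKM in the same order of groups. Pomp, the chaperone that guides beta ring assembly, had 164 FPKM with DON, 219 FPKM with GM-CSF and 227 FPKM with no GM-CSF. These levels set Psmd8 apart from the other 19S subunits outside the ATPase ring, whose class had a median level of 46.7 FPKM with DON, 78.2 FPKM with GM-CSF and 56.5 FPKM with no GM-CSF. The ATPases had medians of 59.1, 93.3 and 71.1 FPKM in that order, and the alpha ring 91.9, 112 and 104 FPKM. The constitutive catalytic subunits had a median of 149.7 FPKM with DON, 171 FPKM with GM-CSF and 172 FPKM with no GM-CSF, against 62.2, 56.6 and 59.9 FPKM for the immunoproteasome subunits. The constitutive catalytic genes therefore stood above their immunoproteasome counterparts in all 3 groups. Assembly chaperones other than Pomp, between 10.5 and 34.4 FPKM as group means, were lower than most particle subunits.

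**Figure D1:**
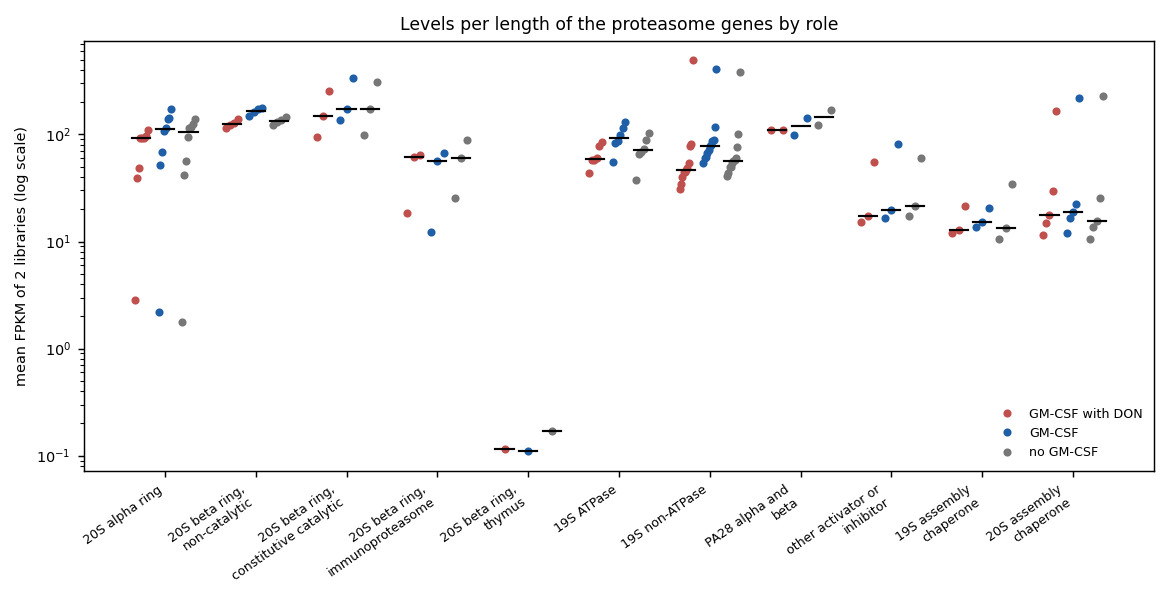
Mean FPKM of each proteasome gene in its group, on a log axis, with genes sorted by role and the 3 groups side by side; points are genes and the black line is the class median. The constitutive catalytic and the non-catalytic beta subunits have the highest class medians with DON and with GM-CSF, Psmd8 stands above its class, and Psma8 and Psmb11 lie far below all others.

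Genes restricted to other tissues were near the floor of detection. Psmb11, the catalytic subunit of the thymus, had between 0.323 and 0.768 CPM in the 6 libraries, and Psma8, the alpha subunit of the testis, had between 2.31 and 3.67 CPM. Psmb11 was not called changed in any comparison, and its groups overlapped between DON and GM-CSF.

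Promoter windows of 300 bases, from 250 before the gene start to 50 from it on, were in the RefSeq table (build GRCm38.p6) for 41 of the 49 genes, and short sites of known regulators were looked for in them on both strands. The ARE core TGACNNNGC is the antioxidant response element through which NRF1, a factor known to drive proteasome genes when the proteasome is impaired, and NRF2 act. It was found in 6 of 41 genes (14.6%), against 14.0% of all 27025 genes of the table. The genes were Psmb5, Psmb6, Psmc6, Psmd9, Psmd12 and Psme4. The interferon regulatory factor (IRF) motif, GAAA and again GAAA with 2 bases of any kind between, was found in 5 genes (12.2%), against 3.99% of all genes: Psmb3, Psmd4, Psmd9, Psme1 and Psmg4. The CCAAT box was found in 14 genes (34.1%), against 41.1% of all genes. Of the 5 immunoproteasome and PA28 genes, none held the ARE core and only Psme1 held the IRF motif. These matches describe the windows and were not tested. The stretches shown are from genes described below, of the beta ring (Psmb), the 19S regulator (Psmc and Psmd) and PA28 (Psme1), with the motif in capitals, 5′ to 3′ on the strand of the gene. In Psmc6, Psmd12, Psmb3 and Psme1 the motif lies on the opposite strand and so reads as its reverse complement.
Psmb5, ARE core, chr14:54618031-54618090, minus strand: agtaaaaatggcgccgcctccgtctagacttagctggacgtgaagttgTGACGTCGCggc
Psmb6, ARE core, chr11:70525297-70525356, plus strand: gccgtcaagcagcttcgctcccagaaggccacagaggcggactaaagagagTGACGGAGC
Psmc6, ARE core, chr14:45329574-45329633, plus strand: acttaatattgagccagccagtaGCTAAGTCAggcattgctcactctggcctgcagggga
Psmd12, ARE core, chr11:107479278-107479337, plus strand: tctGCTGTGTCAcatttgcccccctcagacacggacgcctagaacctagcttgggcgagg
Psmb3, IRF motif, chr11:97703244-97703303, plus strand: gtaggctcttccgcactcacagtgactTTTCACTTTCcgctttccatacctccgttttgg
Psme1, IRF motif, chr14:55578489-55578518, plus strand, across the gene start: gtttcgagctgtgcTTTCGCTTTCccttcc

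Under GM-CSF, most subunits of the constitutive particle rose modestly, while the immunoproteasome subunits Psmb8 and Psmb9 and both PA28 subunits fell. Relative to no GM-CSF, 31 of the 49 genes rose and 5 fell at an adjusted p under 0.05 in edgeR's quasi-likelihood test, against 27.5% of all genes tested that rose and 29.3% that fell. Few of these changes were large: at 1.5-fold or more, 1 gene rose (9.80% of all genes tested did) and 2 fell (13.1%). The groups did not overlap for 45 of the 49 genes, against 78.7% of all genes tested. In the core set, 26 of 31 rose and none fell, with a median log2 fold change of 0.31, or 1.24-fold, beside a median of -0.02 over all genes. In the immunoproteasome and PA28 set, 4 of 5 fell and none rose, with a median of -0.30. With unscaled total counts in place of the scaled ones, the median of all genes moved up by 0.12, and the calls over all genes split into 4587 higher and 2689 lower, against 3393 and 3621. The 49 genes then split into 34 higher and 5 lower. Relative to the median of all genes, the core set stood at 0.32 under both scalings and the immunoproteasome and PA28 set at -0.28.

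**Figure D2:**
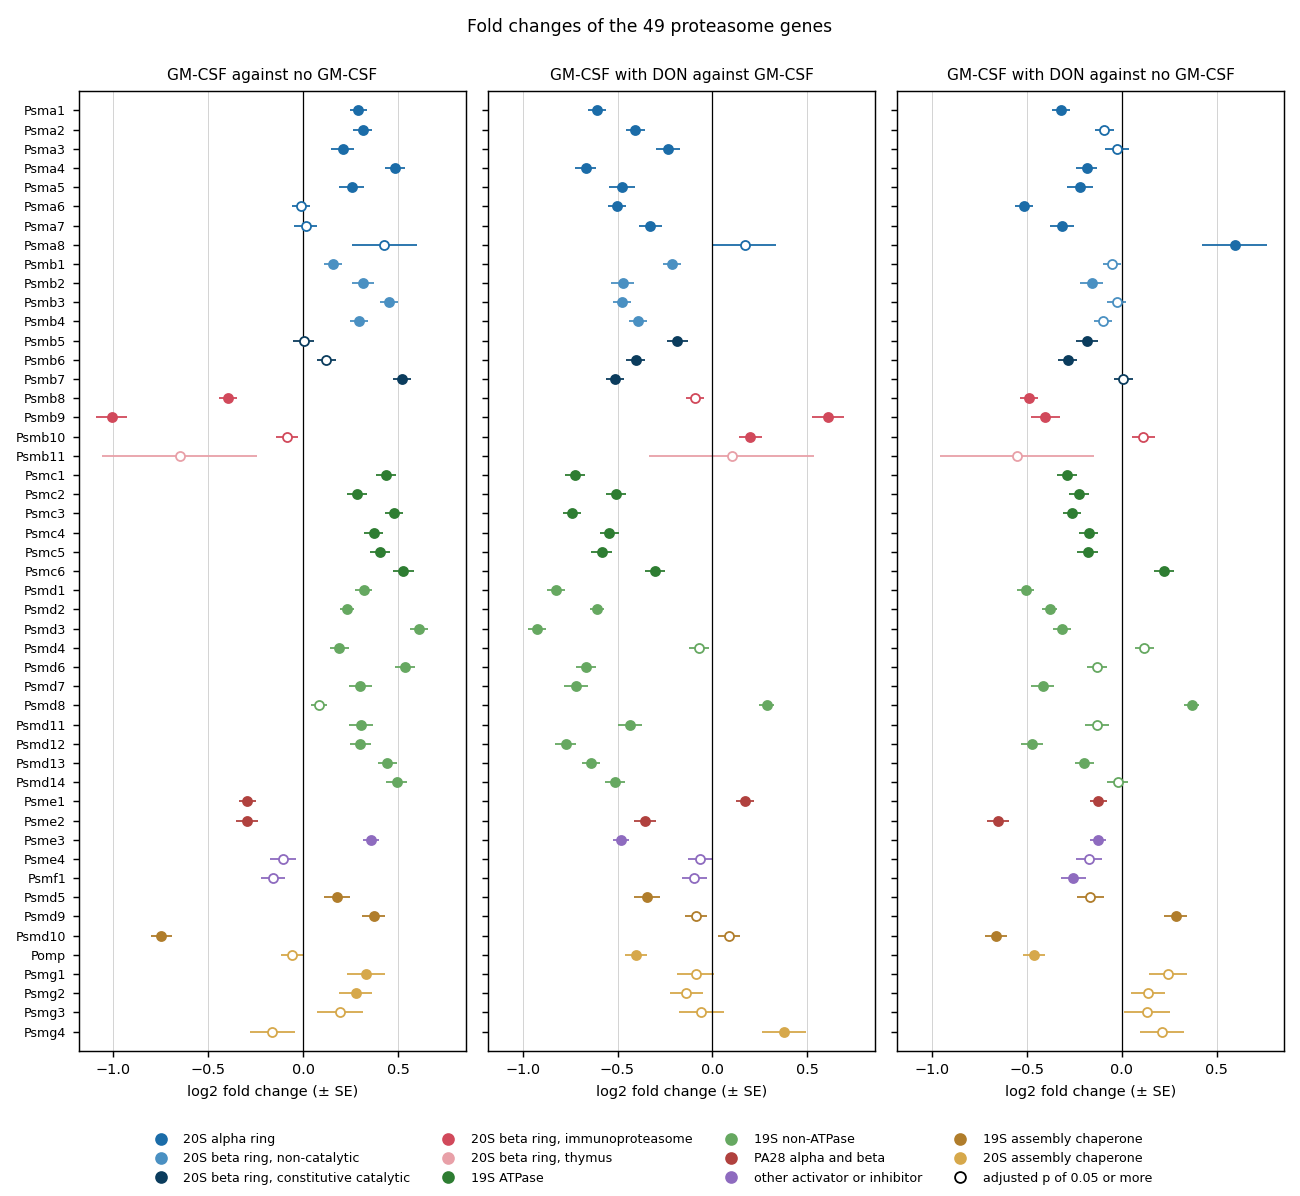
Log2 fold change of each of the 49 proteasome genes in the 3 comparisons, 1 panel each, by role; bars are SE and open points have an adjusted p of 0.05 or more. Core subunits lie mostly right of 0 under GM-CSF relative to none and left of 0 when DON was added, and Psmb9 lies on the other side in both.

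In the 19S regulator, all 6 ATPases rose under GM-CSF, by log2 fold changes between 0.28 and 0.53. Psmc6 had 109 and 108 CPM with GM-CSF, against 72.5 and 78.3 CPM with no GM-CSF, a log2 fold change of 0.53 ± 0.05 (SE; adjusted p = 1.7e-05). Psmc3 had 158 and 157 CPM with GM-CSF, against 111 and 115 CPM with no GM-CSF. Both genes were thus higher in each GM-CSF library than in either library without it. Of the 11 other 19S subunits 10 rose, and the exception was Psmd8 (0.08 ± 0.04, adjusted p = 0.11), the most abundant, which was called higher with unscaled totals (0.20) and with only the groups compared (0.10). The largest rise among all members was that of Psmd3, a scaffold subunit of the lid, with 178 and 169 CPM with GM-CSF, against 113 and 114 CPM with no GM-CSF (0.61 ± 0.05, adjusted p = 2.2e-06). It was the only gene 1.5-fold or more higher; without GM-CSF replicate 1 none reached that size, and without no GM-CSF replicate 2 there were 3. Psmd14, the deubiquitinase that removes the ubiquitin chain, rose by 0.49 ± 0.05. Psmd4, a ubiquitin receptor, rose by 0.19 ± 0.05 (adjusted p = 0.0097).

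In the 20S core, all 4 non-catalytic beta subunits rose, led by Psmb3 with 106 and 101 CPM with GM-CSF, against 75.6 and 75.9 CPM with no GM-CSF (0.45 ± 0.05, adjusted p = 2.2e-05). Of the 8 alpha subunits 5 rose, led by Psma4 with 172 and 166 CPM with GM-CSF, against 116 and 126 CPM with no GM-CSF (0.48 ± 0.05, adjusted p = 2.9e-05). The alpha subunits Psma6 (-0.01 ± 0.05) and Psma7 (0.01 ± 0.06) had overlapping groups, and Psma8 (0.43 ± 0.17, adjusted p = 0.057) did not pass the test, but was called with unscaled totals (0.55). The catalytic subunits did not move as a block. Psmb7, with the trypsin-like site, had 121 and 122 CPM with GM-CSF, against 82.4 and 86.7 CPM with no GM-CSF (0.52 ± 0.05, adjusted p = 8.8e-06). Psmb5, with the chymotrypsin-like site, had 111 and 111 CPM with GM-CSF, against 114 and 108 CPM with no GM-CSF, and Psmb6 had 203 and 207 CPM with GM-CSF, against 182 and 196 CPM with no GM-CSF. Neither Psmb5 (0.00 ± 0.06) nor Psmb6 (0.12 ± 0.05, adjusted p = 0.065) passed the test, and Psmb6 was called with unscaled totals (0.24), with only the groups compared (0.14) and without no GM-CSF replicate 2 (0.18). The calls of Psma3, Psma5, Psmb1 and Psmd4 were not made without GM-CSF replicate 1 (log2 fold changes of 0.13 to 0.22, adjusted p between 0.0593 and 0.128) or without no GM-CSF replicate 1 (0.12 to 0.18, adjusted p between 0.0568 and 0.0999).

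The immunoproteasome subunit Psmb9, on the strand opposite to the peptide transporter gene Tap1 and 211 bases from its start, showed the largest fall of all members. It had 13.1 and 14.2 CPM with GM-CSF, against 27.2 and 27.7 CPM with no GM-CSF, a log2 fold change of -1.01 ± 0.08 (adjusted p = 3.3e-06). Psmb8 had 55.3 and 55.5 CPM with GM-CSF, against 72.4 and 73.6 CPM with no GM-CSF (-0.40 ± 0.05, adjusted p = 5.3e-05). Psmb10 had 61.0 and 61.2 CPM with GM-CSF, against 65.3 and 64.4 CPM with no GM-CSF, and did not pass the test (-0.08 ± 0.06, adjusted p = 0.25). Its sign turned with unscaled totals (0.035). Of the PA28 subunits, Psme1 had 91.6 and 89.0 CPM with GM-CSF, against 109 and 112 CPM with no GM-CSF (-0.29 ± 0.05, adjusted p = 0.0004). Psme2 had 95.6 and 100.4 CPM with GM-CSF, against 116 and 125 CPM with no GM-CSF (-0.30 ± 0.06, adjusted p = 0.0013). On scaled counts all 5 genes were lower in each GM-CSF library than in either library without it. Over all genes tested, 78.7% had groups that did not overlap in either direction. For Psmb10, which was not called, this order depended on the scaling.

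The other activators did not follow PA28 as a group. Psme3, which forms a nuclear activator of the same family, rose to 183 and 178 CPM with GM-CSF, against 139.9 and 142 CPM with no GM-CSF (0.36 ± 0.04, adjusted p = 6.6e-05). Psme4, the PA200 activator, had overlapping groups (81.6 and 82.9 CPM with GM-CSF, against 94.9 and 82.3 CPM with no GM-CSF), and the inhibitor gene Psmf1 did not pass the test (-0.16 ± 0.06, adjusted p = 0.056). Psmf1 was called lower without DON replicate 1 (-0.16) and without DON replicate 2 (-0.16). Among the 19S assembly chaperones Psmd10, also known as gankyrin, fell to 25.2 and 25.5 CPM with GM-CSF, against 43.0 and 42.1 CPM with no GM-CSF (-0.75 ± 0.06, adjusted p = 1.8e-06). Psmd9 rose by 0.37 ± 0.06 (adjusted p = 0.00045), and Psmd5 by 0.18 ± 0.07 (adjusted p = 0.045), a call not made in 9 of 14 alternatives. The chaperones of the same particle thus moved in opposite directions. Of the 20S chaperones, Psmg1 (0.33 ± 0.10, adjusted p = 0.016) and Psmg2 (0.28 ± 0.09, adjusted p = 0.021) rose, each without a call in 4 of 14 alternatives. Pomp (-0.06 ± 0.06), Psmg3 (0.19 ± 0.12) and Psmg4 (-0.16 ± 0.12) did not pass the test.

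When DON was present with GM-CSF, nearly every core subunit was lower than with GM-CSF alone. Of the 49 genes 33 fell and 5 rose, against 28.8% of all genes tested in each direction. At 1.5-fold or more 11 fell and 1 rose, against 10.3% and 12.0% of all genes. In the core set 29 of 31 fell, with a median log2 fold change of -0.51, or 1.42-fold lower, beside a median of 0.01 over all genes. All 11 genes that fell 1.5-fold or more belonged to it. Of the immunoproteasome and PA28 genes, 3 rose and 1 fell, with a median of 0.17. This comparison shares its GM-CSF libraries with the preceding one, so the values of both stand side by side and no relation between them is drawn. The groups did not overlap for 45 of the 49 genes, against 79.4% of all genes.

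The 19S subunits showed the largest falls. Psmd3 had 93.1 and 90.3 CPM with DON, against 178 and 169 CPM with GM-CSF, a log2 fold change of -0.92 ± 0.05 (adjusted p = 2.7e-07). Psmd1, the large scaffold subunit of the base, had 103 and 98.7 CPM with DON, against 179.9 and 177 CPM with GM-CSF (-0.82 ± 0.05, adjusted p = 4.7e-07). Psmd12, a lid subunit, had 50.2 and 45.8 CPM with DON, against 82.3 and 81.7 CPM with GM-CSF (-0.77 ± 0.06, adjusted p = 2.2e-06). In each of these genes the DON libraries lay well below the GM-CSF libraries, and the lid subunit Psmd7 fell alike by 0.72 on the log2 scale. All 6 ATPases fell, between -0.74 and -0.30, with the largest fall in Psmc3 at 96.1 and 92.5 CPM with DON, against 158 and 157 CPM with GM-CSF (-0.74 ± 0.05, adjusted p = 8.5e-07), and the smallest in Psmc6. Psmd8 went the other way, with 674 and 639 CPM with DON, against 532 and 546 CPM with GM-CSF (0.29 ± 0.04, adjusted p = 0.0002). It was the only core subunit to rise, and Psmd4 (-0.07 ± 0.05, adjusted p = 0.27) the only one without a call.

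**Figure D3:**
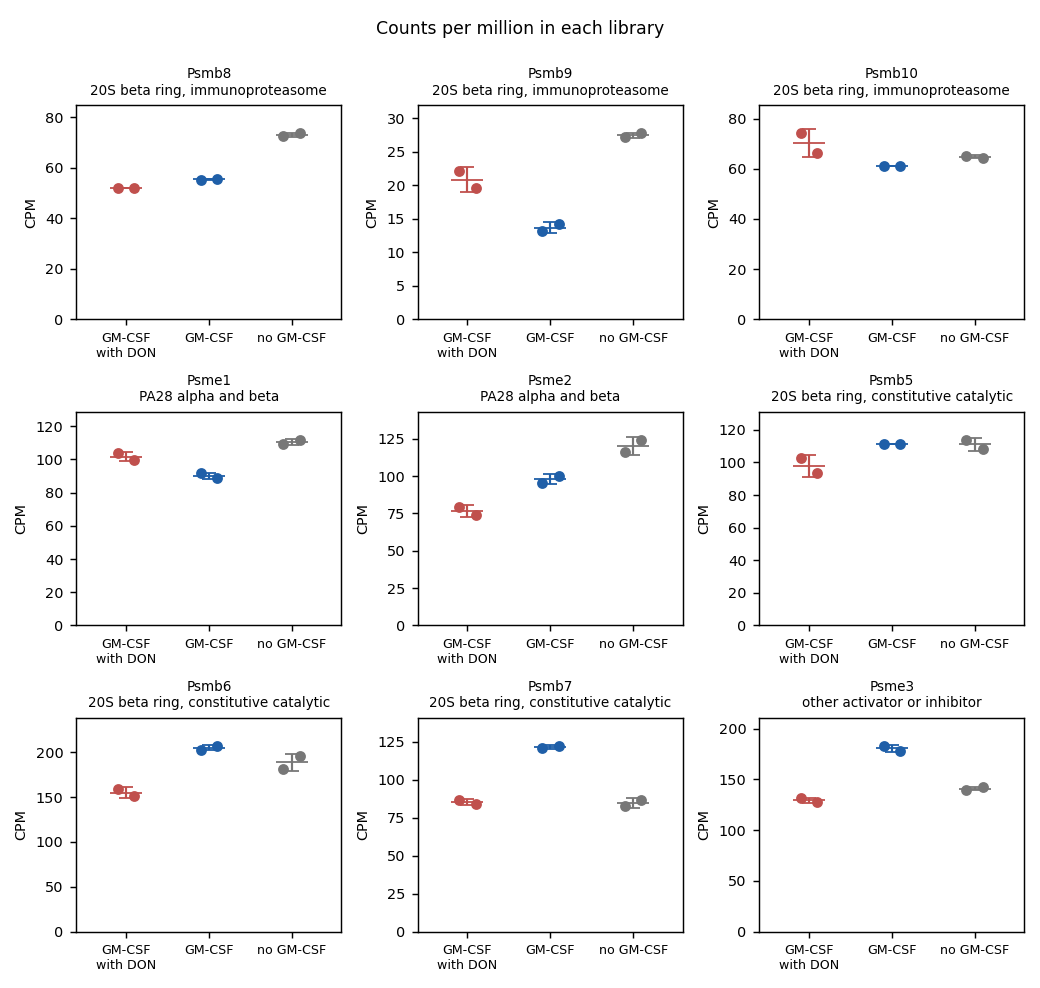
CPM of the immunoproteasome subunits Psmb8, Psmb9 and Psmb10, the PA28 subunits Psme1 and Psme2, the constitutive catalytic subunits Psmb5, Psmb6 and Psmb7, and Psme3 in each library; points are libraries, and bars are the mean and SD (n = 2). Psmb9 is lowest with GM-CSF, Psmb7 and Psme3 are highest with GM-CSF, and Psme2 is lowest with DON.

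In the 20S core, 7 of 8 alpha subunits fell, and the exception was Psma8. Psma4 had 109 and 104 CPM with DON, against 172 and 166 CPM with GM-CSF (-0.67 ± 0.05, adjusted p = 3.9e-06). All 4 non-catalytic beta subunits fell, led by Psmb3 with 74.9 and 73.9 CPM with DON, against 106 and 101 CPM with GM-CSF (-0.48 ± 0.05, adjusted p = 1.8e-05). All 3 constitutive catalytic subunits fell as well. Psmb7 had 86.5 and 83.7 CPM with DON, against 121 and 122 CPM with GM-CSF (-0.51 ± 0.05, adjusted p = 1.2e-05). Psmb6 had 159 and 151 CPM with DON, against 203 and 207 CPM with GM-CSF (-0.40 ± 0.05, adjusted p = 8.3e-05). Psmb5 had 103 and 93.3 CPM with DON, against 111 and 111 CPM with GM-CSF (-0.19 ± 0.06, adjusted p = 0.017), the smallest change of the 3. Its call was not made without GM-CSF replicate 1 (adjusted p = 0.0705), GM-CSF replicate 2 (0.0694) or DON replicate 2 (0.154), nor was that of Psma3 without GM-CSF replicate 1 (0.0809) or DON replicate 2 (0.0944).

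Of the 3 immunoproteasome subunits, 2 were called higher and none lower. Psmb9 rose to 22.1 and 19.5 CPM with DON, against 13.1 and 14.2 CPM with GM-CSF (0.61 ± 0.08, adjusted p = 0.00016). It was called in all 14 alternatives, between 0.52 and 0.70, but stood under 1.5-fold with unscaled totals (0.58), in FPKM (0.58), without GM-CSF replicate 1 (0.55) and without DON replicate 1 (0.52). Psmb10 had 74.2 and 66.3 CPM with DON, against 61.0 and 61.2 CPM with GM-CSF (0.20 ± 0.06, adjusted p = 0.016), a call not made without GM-CSF replicate 1 (adjusted p = 0.0811), GM-CSF replicate 2 (0.0710) or DON replicate 1 (0.13). Psmb8 had 52.1 and 51.9 CPM with DON, against 55.3 and 55.5 CPM with GM-CSF, and did not pass the test (-0.09 ± 0.05, adjusted p = 0.14). The subunits of PA28, which form a single complex, parted. Psme1 had 104 and 99.9 CPM with DON, against 91.6 and 89.0 CPM with GM-CSF (0.17 ± 0.05, adjusted p = 0.01), not called without GM-CSF replicate 2 (0.0746) or DON replicate 1 (0.0662). Psme2 fell to 79.4 and 73.8 CPM with DON, against 95.6 and 100.4 CPM with GM-CSF (-0.36 ± 0.06, adjusted p = 0.00046). Over all 49 genes, the 5 that rose became 3 without GM-CSF replicate 1 and 2 without GM-CSF replicate 2 or DON replicate 1; Psmb9 and Psmd8 were called in every alternative.

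Among the remaining activators, Psme3 fell to 131 and 127 CPM with DON, against 183 and 178 CPM with GM-CSF (-0.48 ± 0.04, adjusted p = 1e-05). Psme4 (-0.06 ± 0.07, adjusted p = 0.45) and Psmf1 (-0.09 ± 0.07, adjusted p = 0.24) did not pass the test. Pomp fell to 95.7 and 85.0 CPM with DON, against 118 and 121 CPM with GM-CSF (-0.40 ± 0.06, adjusted p = 0.00023). Among the 19S chaperones Psmd5 fell (-0.34 ± 0.07, adjusted p = 0.0017), and Psmd9 and Psmd10, at -0.09 and 0.09, did not pass the test. Psmg4, a 20S chaperone, had 11.2 and 9.21 CPM with DON, against 8.07 and 7.62 CPM with GM-CSF (0.38 ± 0.12, adjusted p = 0.019). It was not called by DESeq2 (0.0946) or without GM-CSF replicate 1 (0.0572), GM-CSF replicate 2 (0.101) or DON replicate 1 (0.14). The genes with the ARE core in the promoter windows above had log2 fold changes between -0.77 (Psmd12) and -0.06 (Psme4) here, with Psmd9 and Psme4 not called. Those with the IRF motif lay between -0.48 (Psmb3) and 0.38 (Psmg4). The median of all 49 genes was -0.40, and a part of the motifs in these changes was not tested.

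Set against no GM-CSF, the cells with GM-CSF and DON had lower levels of many proteasome genes, mostly by small amounts. Of the 49 genes 27 fell and 4 rose, against 28.4% and 27.2% of all genes tested. At 1.5-fold or more 2 fell and 1 rose, against 12.2% and 10.3%. The groups did not overlap for 43 of the 49 genes, against 77.6% of all genes. In the core set 19 of 31 fell and 2 rose, with a median log2 fold change of -0.18 beside 0.01 over all genes. In the immunoproteasome and PA28 set 4 of 5 fell, with a median of -0.40. With unscaled totals the calls over all genes were 2746 lower and 4408 higher, against 3506 and 3353. Relative to the median of all genes, the core set stood at -0.19 and the immunoproteasome and PA28 set at -0.41 under both scalings. The split of the 49 genes depended on the scaling, as 16 fell and 9 rose with unscaled totals. It depended also on DON replicate 2, without which 17 fell and 7 rose.

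The subunits that stood out in this comparison were again on either side. Psma6 had 84.6 and 82.4 CPM with DON, against 116 and 123 CPM with no GM-CSF (-0.52 ± 0.05, adjusted p = 1e-05). Psmd1 had 103 and 98.7 CPM with DON, against 141 and 146 CPM with no GM-CSF (-0.51 ± 0.05, adjusted p = 8.5e-06). Psmd8 had 674 and 639 CPM with DON, against 503 and 514 CPM with no GM-CSF (0.37 ± 0.04, adjusted p = 3.4e-05). Psmd8 was therefore at its highest with DON and Psma6 and Psmd1 at their lowest. Of the ATPases, Psmc1 fell by the most (-0.29 ± 0.05, adjusted p = 0.0012), and Psmc6 was the only one higher with DON, at 90.2 and 85.8 CPM, against 72.5 and 78.3 CPM with no GM-CSF (0.22 ± 0.05, adjusted p = 0.0056). Psma8 rose (0.59 ± 0.17, adjusted p = 0.013) at a level of a few CPM, a call not made by DESeq2 (0.0924), without DON replicate 1 (0.0655) or without no GM-CSF replicate 1 (0.0590). Psmd9 rose by 0.29 ± 0.06 and Psmd10 fell by 0.66 on the log2 scale. Psmb2, a non-catalytic beta subunit, fell (-0.16 ± 0.06, adjusted p = 0.049), without a call in 10 of 14 alternatives.

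Of the catalytic subunits, Psmb6 fell (-0.28 ± 0.05, adjusted p = 0.00092), Psmb7 had overlapping groups (0.01 ± 0.05), and Psmb5 fell (-0.18 ± 0.06, adjusted p = 0.019), without a call in 3 of 14 alternatives: with unscaled totals (0.195), without DON replicate 2 (0.16) and without no GM-CSF replicate 1 (0.0877). Psmb8 fell to 52.1 and 51.9 CPM with DON, against 72.4 and 73.6 CPM with no GM-CSF (-0.49 ± 0.05, adjusted p = 1.4e-05). Psme2 fell to 79.4 and 73.8 CPM with DON, against 116 and 125 CPM with no GM-CSF (-0.65 ± 0.06, adjusted p = 6.6e-06), and Psmb9 fell as well (-0.40 ± 0.08, adjusted p = 0.0016). Psmb9 with DON thus lay between its levels in the other groups, while Psme2 lay below both. Psmb10 did not pass the test (0.12 ± 0.06, adjusted p = 0.13), but was called higher with unscaled totals (0.21) and without DON replicate 2 (0.20). Psme1 fell (-0.12 ± 0.05, adjusted p = 0.048), without a call in 11 of 14 alternatives, and Psme3 likewise (-0.12 ± 0.04, adjusted p = 0.035) in 7 of 14. Pomp fell by 0.46 on the log2 scale (adjusted p = 9.2e-05). Psmf1 fell by 0.26 (adjusted p = 0.0074), not called with unscaled totals (0.0579) or without DON replicate 2 (0.0712). Psme4, Psmb11 and Psmg3 were not called in this or any other comparison, but without no GM-CSF replicate 2 Psme4 fell with GM-CSF (-0.21, adjusted p = 0.0153) and with DON (-0.27, adjusted p = 0.0028), each against no GM-CSF.

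The balance between an immunoproteasome subunit and the constitutive subunit that it replaces was measured as its share of the FPKM of the pair, within each library. Psmb9 made up 6.98% and 6.56% of the Psmb9 and Psmb6 pair with DON, 3.40% and 3.62% with GM-CSF and 7.75% and 7.33% with no GM-CSF. Psmb10 made up 41.7% and 38.9% of the Psmb10 and Psmb7 pair with DON, 29.4% and 29.0% with GM-CSF and 38.7% and 36.9% with no GM-CSF. For both pairs the share was lowest with GM-CSF. Psmb8 made up 28.4% and 30.4% of the Psmb8 and Psmb5 pair with DON, 28.0% and 28.4% with GM-CSF and 33.8% and 34.4% with no GM-CSF, so that this pair stayed low with DON.

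As log2 ratios, the differences between GM-CSF and no GM-CSF were -1.16 ± 0.06 for Psmb9 to Psmb6, -0.56 ± 0.06 for Psmb10 to Psmb7 and -0.40 ± 0.02 for Psmb8 to Psmb5 (SE, n = 2 each). Between DON and GM-CSF they were 1.0 ± 0.07, 0.71 ± 0.08 and 0.08 ± 0.07 in the same order of pairs. Between DON and no GM-CSF they were -0.17 ± 0.06, 0.15 ± 0.10 and -0.31 ± 0.07. No groups overlapped in any of the 9 differences, but for Psmb8 to Psmb5 between DON and GM-CSF the gap was smaller than the spread of the DON libraries, and without 1 library the difference lay between 0.02 and 0.15. An exact two-sided permutation test of 2 libraries against 2 gave p = 0.333 for each of the 9, the smallest that this design allows, so none could reach the 0.05 level.

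**Figure D4:**
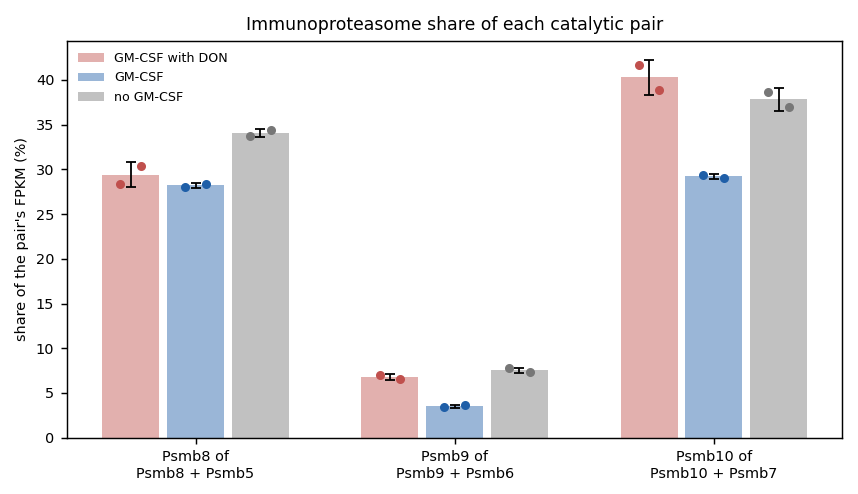
Share of the immunoproteasome subunit in the FPKM of its pair with the constitutive subunit, in percent, for Psmb8 with Psmb5, Psmb9 with Psmb6 and Psmb10 with Psmb7; bars are means of 2 libraries, points are libraries and error bars the SD. Psmb9 and Psmb10 have their lowest share with GM-CSF, and Psmb8 has its highest share with no GM-CSF.

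Some of these genes lie close to others, and the strand setting of the counting is not given in the sources used here, so their reads cannot be told apart where exons overlap. In GENCODE (GRCm38), Psmb9 (chromosome 17, 34181987 to 34187764, minus strand) shares 212 exonic bases, 5.79% of its exon length, with Tap1 on the other strand. Psmb8 (chromosome 17, 34197721 to 34201454, plus strand) shares 498 bases, 14.7%, with the antisense gene Gm20496, and Psmb7 shares 405 bases, 11.8%, with Nek6. The largest overlap is that of Psmd9, which shares 1849 bases, 25.5%, with a long noncoding RNA gene on the other strand. Psmb5 shares 109 bases, 12.1%, with a microRNA gene on its own strand, and Psmd13, Psmc3 and Psmg3 share 10.1%, 8.25% and 9.68% of their exon length with other genes. Tap1, like Psmb9, was lowest with GM-CSF, but unlike Psmb9 it was highest with DON. It had 31.0 and 32.5 CPM with DON, 21.4 and 23.8 CPM with GM-CSF and 25.4 and 26.5 CPM with no GM-CSF. The part of shared reads in these levels was not tested.

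The peptides made by the immunoproteasome are displayed on MHC class I, and genes of that pathway were followed as a list. The shares of all genes tested given above are the background for this and the following lists: 27.5% rose and 29.3% fell with GM-CSF against no GM-CSF, 28.8% in each direction with DON against GM-CSF, and 27.2% rose and 28.4% fell with DON against no GM-CSF. Of 13 tested, 10 fell (76.9%) and 3 rose (23.1%) with GM-CSF against no GM-CSF, with a median log2 fold change of -0.48. Those that fell included H2-D1 (-1.13), H2-K1 (-1.15) and H2-T23 (-1.15), which encode class I heavy chains, and Tapbp (-0.96), the bridge that loads them. Those that rose were the general chaperones of the endoplasmic reticulum Pdia3 (0.70), Calr (0.41) and Canx (0.34). With DON against GM-CSF 9 rose (69.2%) and 3 fell (23.1%), with a median of 0.47. H2-T23 had 249.7 and 249.4 CPM with DON, against 103 and 107 CPM with GM-CSF (1.25 ± 0.04, adjusted p = 2.9e-08). H2-D1 (0.61), H2-Q4 (0.93) and B2m (0.57), the light chain of class I, also rose, and the 3 chaperones fell. Heavy chains of this family share sequence, so their reads may have been split between copies. With DON against no GM-CSF 5 of the 13 rose and 5 fell (38.5% each), among them H2-D1 (-0.52), H2-K1 (-0.68), Tapbp (-0.51) and Pdia3 (0.41).

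**Figure D5:**
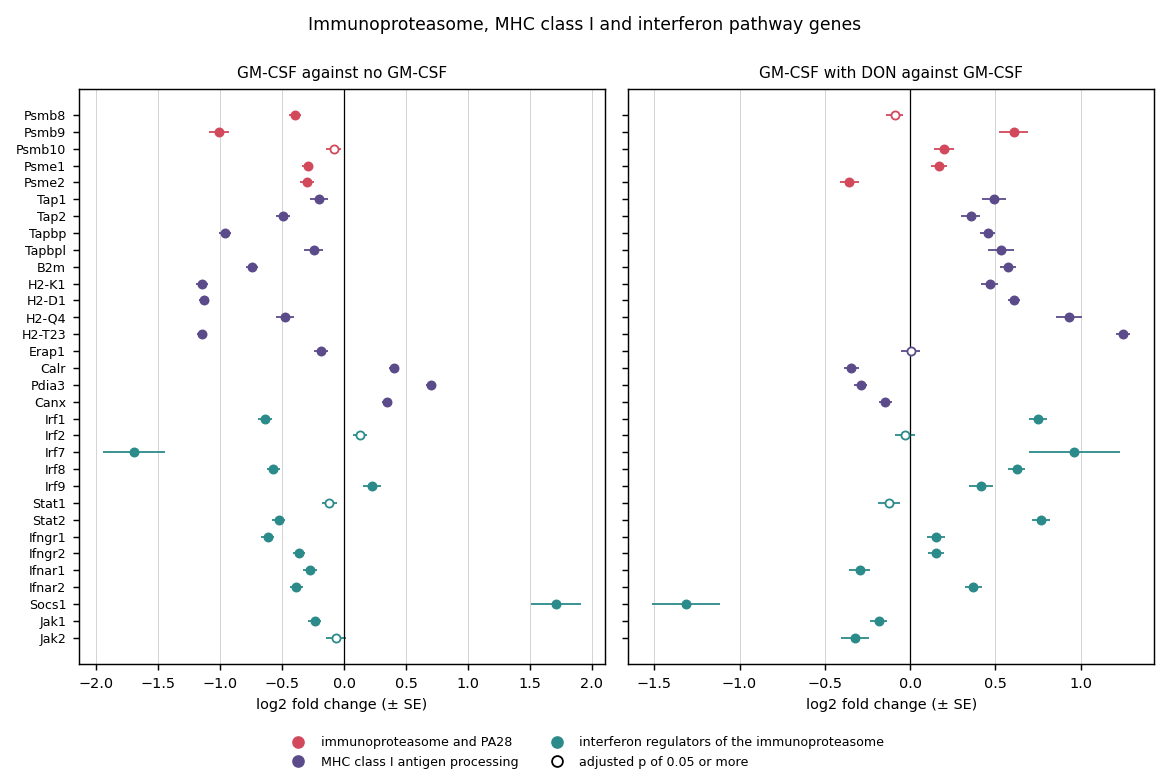
Log2 fold changes of the immunoproteasome and PA28 subunits, the MHC class I genes and the interferon regulators under GM-CSF relative to none and under added DON relative to GM-CSF; bars are SE. Most class I genes lie below 0 in the first comparison and above 0 in the second, and the comparisons share the GM-CSF libraries.

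Of 14 regulators of the interferon response tested, 9 fell (64.3%) and 2 rose (14.3%) with GM-CSF against no GM-CSF. Irf1, the factor best known for inducing the immunoproteasome genes, had 51.4 and 47.9 CPM with GM-CSF, against 77.1 and 77.6 CPM with no GM-CSF (-0.64 ± 0.05, adjusted p = 3.9e-06). Irf8 (-0.57), Stat2 (-0.53) and the interferon gamma receptor chain Ifngr1 (-0.62) fell too. Socs1, an inhibitor of this signalling, had 4.52 and 4.20 CPM with GM-CSF, against 1.54 and 1.13 CPM with no GM-CSF (1.71 ± 0.20, adjusted p = 5.5e-05). It was chosen after its values were seen. With DON against GM-CSF 8 rose (57.1%) and 4 fell (28.6%). Irf1 had 84.7 and 82.4 CPM with DON, against 51.4 and 47.9 CPM with GM-CSF (0.75 ± 0.05, adjusted p = 1.8e-06), and Stat2 (0.77), Irf8 (0.63) and Ifnar2 (0.37) rose as well. With DON against no GM-CSF 2 rose (14.3%) and 7 fell (50%). Irf9 rose (0.64), while Ifnar1 (-0.57), Ifngr1 (-0.46) and Jak1 (-0.42) fell. Ifng and Ifnb1, which encode interferons, were not among the genes analysed here.

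Partners of the proteasome outside the symbol rule were followed as a second list, which holds the ubiquitin receptor Adrm1, shuttle factors and deubiquitinases. Of 15 tested, 8 rose (53.3%) and 3 fell (20%) with GM-CSF against no GM-CSF, among them the shuttle factor Rad23b (0.41), the deubiquitinase Uchl5 (0.46) and the stress-inducible Zfand2a (-0.30). With DON against GM-CSF 2 rose (13.3%) and 8 fell (53.3%). Usp14, the deubiquitinase that binds the 19S base, had 94.8 and 99.9 CPM with DON, against 146 and 143 CPM with GM-CSF (-0.57 ± 0.05, adjusted p = 6.7e-06). Ubqln1 (-0.38) and Ubqln2 (-0.48) fell and Zfand2a rose (0.36). With DON against no GM-CSF 3 rose and 3 fell (20% each, below the share of all genes), among them Ubqln2 (-0.65), Usp14 (-0.37), Ubqln1 (-0.18) and Rad23b (0.22).

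The pathway of NRF1, encoded by Nfe2l1, was measured in 13 genes. With GM-CSF against no GM-CSF 6 rose (46.2%) and 2 fell (15.4%), among them Syvn1 (0.52), Vcp (0.34) and Nploc4 (0.36) on the rising side and Nfe2l2 (-0.81), which encodes NRF2, on the other. With DON against GM-CSF 4 rose (30.8%, near the share of all genes) and 6 fell (46.2%). Nfe2l1 itself had 263 and 269 CPM with DON, against 188 and 199.7 CPM with GM-CSF (0.46 ± 0.04, adjusted p = 1.5e-05). It had 191 and 193 CPM with no GM-CSF. Ngly1, the enzyme that removes its sugar chains, rose by 0.44. Vcp, the ATPase that extracts it from the endoplasmic reticulum, had 333 and 322 CPM with DON, against 576 and 564 CPM with GM-CSF (-0.80 ± 0.04, adjusted p = 2.7e-07), and Nploc4, a cofactor of Vcp, fell (-0.44). Nfe2l1 was thus highest in the DON libraries and alike in the other groups, and genes around it moved both ways. With DON against no GM-CSF 4 rose and 4 fell (30.8% each, near the share of all genes), among them Sel1l (0.57), Syvn1 (0.67), Vcp (-0.46) and Nfe2l2 (-1.06).

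Among genes of ubiquitin and its activating enzymes, Ubb (0.32), a polyubiquitin gene, and Uba1 (0.20), an activating enzyme, rose with GM-CSF against no GM-CSF. With DON against GM-CSF, Ubb had 1620 and 1640 CPM with DON, against 987 and 1009 CPM with GM-CSF (0.71 ± 0.04, adjusted p = 3.8e-07). The activating enzymes Uba1 (-0.41) and Uba6 (-0.31) and the ubiquitin fusion gene Rps27a (-0.29) fell. With DON against no GM-CSF Ubb rose (1.03) and Uba6 fell (-0.50).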

How the data were processed

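Whole-number counts per gene symbol for all 6 libraries were used as the authors deposited them. A second table held FPKM values, computed by the authors before deposit and used here only to compare genes with each other and to form the pair shares. Per the submitters' processing notes, the tools were DESeq2 1.28.1, featureCounts, STAR 2.6.0a and Subread 1.4.6 and the build was mm10, with no role given for any; the strand setting is not given in the sources used here. The gene length implied by counts over FPKM varied between libraries by an SD of over 5% for 4 of the 49 members (Psmd11, Psma8, Psmd14 and Psme3). No replicate columns were identical, and replicates differed by a chi-square of 4.50 to 8.46 per degree of freedom.

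Counts were tested with edgeR 4.0.16 (R 4.3.3): filterByExpr with a minimum count of 10, TMM scaling (trimmed mean of M values), a quasi-likelihood fit of all 6 libraries with a coefficient per group, two-sided contrasts, and Benjamini-Hochberg adjustment over 12340 genes, called at an adjusted p under 0.05. Log2 fold changes had a median SE of 0.08, and the fit had 3 residual and 6.74 prior degrees of freedom. CPM values use the scaled library sizes. Alternatives were other scalings, no filter, DESeq2 1.42.0, limma-voom and limma 3.58.1 on log2(FPKM + 0.1), only the groups compared, a replicate block, and leaving out each library. The fit was tested on simulated data. Pair ratios were compared with an exact permutation test (scipy 1.17.1). Promoters came from RefSeq and gene positions from GENCODE M21. A planned identity of subunit proteins was not run.

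Members and lists were chosen with earlier results of these data known. Named throughout were the immunoproteasome, PA28 and catalytic subunits, Psme3, Psme4, Psmf1 and Pomp, with the largest called rise and fall of each role in each comparison, members never called, and up to 4 genes of each related list with the smallest adjusted p. Genes named beside these, among them Psma7, Psmd4, Psmd7, Psmd12, Psmd14, Tap1 and Socs1, were chosen after their values were seen. Some genes of the related lists are not reported here, and no count is given for the list of ubiquitin genes.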

Additional observations from a re-analysis of the deposited data

How the results depend on the processing

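Of 105 pairs of member and comparison that were called, 81 kept direction and call under all 14 alternatives, and no called pair reversed; over the alternatives, calls were lost 91 times and gained 22 times. Where a value changed, the cause was not tested. With unscaled totals, for GM-CSF against no GM-CSF, 7 members stood 1.5-fold or more higher, the core median was 0.43 and the immunoproteasome and PA28 median -0.18; for DON against GM-CSF, 0 stood 1.5-fold or more higher; for DON against no GM-CSF, 9 rose, 16 fell and 0 stood 1.5-fold or more lower. Uncalled members that turned were Pomp (0.062), Psma6 (0.11), Psmb10 (0.035) and Psme4 (0.013) for GM-CSF against no GM-CSF, and Psma2 (0.0043), Psma3 (0.071), Psmb1 (0.044), Psmb3 (0.071) and Psmd14 (0.077) for DON against no GM-CSF. With only the groups compared, the immunoproteasome and PA28 median for GM-CSF against no GM-CSF was -0.28 and Psma6 0.0077. In FPKM, Psmb5 was -0.0031 for GM-CSF against no GM-CSF, Psmb7 -0.044 and Psmd11 0.10 for DON against no GM-CSF, and 0 members stood 1.5-fold or more higher for DON against GM-CSF. With DESeq2, 0 stood 1.5-fold or more higher for DON against no GM-CSF. Without 1 library each, for GM-CSF against no GM-CSF, 0 to 3 stood 1.5-fold or more higher, the immunoproteasome and PA28 median was -0.35 to -0.28, Psma6 -0.053 to 0.030, Psma7 -0.046 to 0.071 and Psmb5 -0.034 to 0.041. For DON against GM-CSF, 2 to 5 rose, 0 to 1 stood 1.5-fold or more higher, Psmb11 was -0.27 to 0.55, Psmg1 -0.23 to 0.049 and Psmg3 -0.22 to 0.077. For DON against no GM-CSF, 3 to 7 rose, 17 to 26 fell, 0 to 1 stood 1.5-fold or more higher, Psma3 was -0.10 to 0.049, Psmb7 -0.031 to 0.044, Psmd14 -0.054 to 0.0077 and Psmg3 -0.025 to 0.27. The labels do not say that replicate numbers pair the libraries, and the differences between replicates correlated at 0.06 between DON and GM-CSF, -0.05 between GM-CSF and no GM-CSF and -0.30 between DON and no GM-CSF. With the replicate block, 30 rose and 5 fell for GM-CSF against no GM-CSF, 5 rose and 33 fell for DON against GM-CSF, and 4 rose and 24 fell for DON against no GM-CSF. Calls not made under the block were Psmd5 in the first (adjusted p = 0.0643) and Psmb2 (0.0730), Psme1 (0.0702) and Psme3 (0.0532) in the last. At 2 libraries a group, Psmb11, below 1 CPM, had an SE of 0.41, and changes of its size could not be detected.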
